A study of Mus musculus with 12 samples.

Results

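The circadian clock genes examined here were the 10 genes Per1, Per2, Per3, Cry1, Cry2, Dbp, Tef, Nr1d1, Nr1d2 and Clock, chosen by symbol, and all 10 were among the 57132 features of the count table. RNA was sequenced from the striatum (a forebrain slice freed of cortex) of 6 knockout mice that lack TAAR5, a receptor for trace amines (TAAR5-KO), and of 6 wild-type (WT) littermates, all C57Bl/6, 10 months old and kept on equal hours of light and dark. Each group held both sexes according to the study's methods, but no library is tied to a sex, an animal or a cage. The hour of dissection, on which the level of a clock gene depends, is not given in the sources used here. The libraries are numbered NK1 to NK6 (labelled TAAR5-KO) and NK7 to NK12 (labelled WT), and nothing marks a library beyond its genotype. The targeted gene Taar5 had between 1 and 6 counts in the libraries labelled TAAR5-KO and between 0 and 2 in those labelled WT, so these few counts go against the labels, and every direction below follows the labels only. The stretch that the knockout allele lacks is not given in the sources used here.

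The molecular clock is a feedback loop of transcription. CLOCK pairs with BMAL1 (or its relative NPAS2 with BMAL1), binds E-box sequences and switches on the Per and Cry genes, whose proteins gather and repress that pair. The same pair switches on Nr1d1 and Nr1d2, which encode the nuclear receptors REV-ERB alpha and beta, repressors of Bmal1, and Dbp and Tef, which encode activators that bind D-box sequences. In most tissues Bmal1 transcripts therefore peak at about the opposite time of day from Dbp and Nr1d1. The striatum holds such a clock outside the suprachiasmatic nucleus, the master pacemaker, and Per1 and Per2 there also answer acute stimulation.

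Clock factors act on clock genes through short motifs in their promoters, so the promoters of the only member that passed the test (Nr1d1) and of 2 repressor genes with several motifs (Per1, Cry1), with that of Bmal1, are given. They come from RefSeq on GRCm38.p6, not the GRCm39 build of the counts, and run 5′ to 3′ from 250 bases before to 50 bases after an annotated start. Capitals mark letters that match an E-box (CACGTG), an E′-box (CACGTT), a D-box (TTATGNAA), the core of a cAMP response element (TGACG) or a REV-ERB and ROR half-site (AGGTCA) on either strand.
Nr1d1, chr11:98775328-98775627, minus strand: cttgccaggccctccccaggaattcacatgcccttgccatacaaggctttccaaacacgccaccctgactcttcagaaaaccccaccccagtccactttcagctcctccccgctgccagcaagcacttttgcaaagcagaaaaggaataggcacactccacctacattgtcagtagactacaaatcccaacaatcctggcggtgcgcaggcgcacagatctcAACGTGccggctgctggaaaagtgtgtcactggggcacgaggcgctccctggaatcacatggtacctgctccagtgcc
Per1, chr11:69098699-69098998, plus strand: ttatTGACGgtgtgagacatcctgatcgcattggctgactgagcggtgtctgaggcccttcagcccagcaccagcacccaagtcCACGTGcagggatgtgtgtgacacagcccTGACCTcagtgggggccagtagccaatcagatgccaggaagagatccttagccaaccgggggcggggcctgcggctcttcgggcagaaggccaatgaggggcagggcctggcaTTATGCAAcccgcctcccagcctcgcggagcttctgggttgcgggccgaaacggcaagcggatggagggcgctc
Cry1, chr10:85185005-85185304, minus strand: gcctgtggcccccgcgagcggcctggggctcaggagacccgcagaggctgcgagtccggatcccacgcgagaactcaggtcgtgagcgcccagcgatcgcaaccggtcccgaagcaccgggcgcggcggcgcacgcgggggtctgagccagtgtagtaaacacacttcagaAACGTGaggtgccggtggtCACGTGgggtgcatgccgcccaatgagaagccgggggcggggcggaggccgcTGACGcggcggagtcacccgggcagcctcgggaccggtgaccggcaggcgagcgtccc
Bmal1 (listed as Arntl), chr7:113207261-113207560, plus strand: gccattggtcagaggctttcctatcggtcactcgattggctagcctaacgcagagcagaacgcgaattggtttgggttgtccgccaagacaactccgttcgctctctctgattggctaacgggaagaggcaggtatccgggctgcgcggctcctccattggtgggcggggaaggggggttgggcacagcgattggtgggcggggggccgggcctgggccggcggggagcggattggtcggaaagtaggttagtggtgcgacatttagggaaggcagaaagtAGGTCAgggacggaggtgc

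The promoter table held 13 starts for 9 of the 10 members, some of them overlapping, and none for Per2. An E-box was in 4 of these 13 promoters, of Per1, Cry1 and Tef, against 7.15% of all 32851 promoters of the table. An E′-box was in 3 of 13 (Cry1, Cry2 and Nr1d1) against 4.68%, and a D-box in 2 of 13 (Per1 and Per3) against 3.38%. The core of the cAMP response element, through which stimulation reaches Per1, was in 4 of 13 (both starts of Per1, Cry1 and Cry2) against 20.8%. The half-site AGGTCA was in 3 of 13 (Per1, Nr1d2 and Clock) against 16.3%. A match describes these letters in this window and is not a bound site.

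All 10 members were counted in every library, but many at low counts. Total counts ran from 11269915 to 34824450 per library, of which ribosomal RNA features and Lars2 held 65.9% to 90.6%, and between 1408771 and 6085409 counts remained outside them. Levels are CPM, the counts of a gene relative to all counts of its library, on library sizes scaled by the trimmed mean of M-values (TMM), or CPM per kilobase of merged exons (RPKM) where genes are compared with each other. Striatal projection neuron markers (a list of 8 genes with Drd1, Drd2, Ppp1r1b and Penk among them) were all counted. They summed to between 239 and 304 CPM under the TAAR5-KO label and between 143 (NK11) and 261 CPM under the WT label, and all 8 had positive log2 fold changes, with none past the test below. Their part in the results was not tested. The 4 markers of the suprachiasmatic nucleus (Avp, Nms, Prok2 and Six6) did not pass the filter on low counts and summed to at most 1.90 CPM in any library.

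Per length, the order of the levels over the 12 libraries was led by Nr1d2 with 4.11 ± 0.272 RPKM (SD, n = 12), followed by Nr1d1 with 3.13 ± 0.570 RPKM and Tef with 2.54 ± 0.250 RPKM. Clock had 2.03 ± 0.176 RPKM and Cry2 had 1.30 ± 0.187 RPKM. Per1 (0.926 ± 0.0843 RPKM), Dbp (0.805 ± 0.190 RPKM) and Cry1 (0.709 ± 0.0963 RPKM) followed, and in this order each differed from the next by less than the larger SD, whereas Per1 and Cry1 differed by more. Per2 had 0.446 ± 0.0740 RPKM and Per3, the lowest, had 0.354 ± 0.0392 RPKM. Npas2 (2.22 ± 0.292 RPKM) exceeded Clock by less than the larger SD, though it lay above Clock in 10 of the 12 libraries. Bmal1, the gene of the partner of CLOCK, had 0.594 ± 0.139 RPKM, between Cry1 and Per2.

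**Figure D1:**
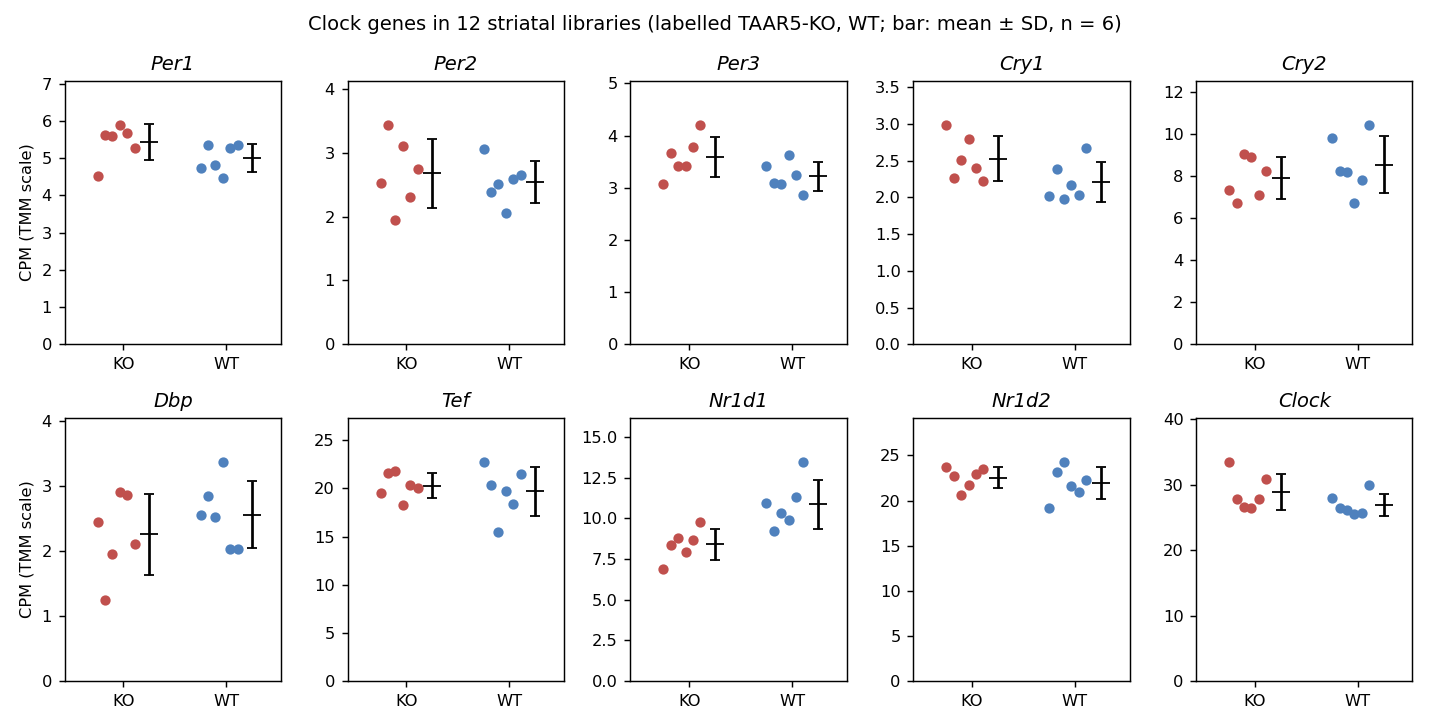
Level of each clock gene in CPM on the TMM scale (vertical axes from 0), with 1 point per library for the 6 libraries labelled TAAR5-KO (red) and the 6 labelled WT (blue) and a bar for the mean ± SD. The points of the groups overlap in all 10 panels, and the means lie farthest apart, relative to the spread, for Nr1d1 (8.40 and 10.9 CPM).

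The comparison of genotypes asked whether the clock genes of the striatum differ in animals without TAAR5. Of the 10 members, 1 passed the likelihood ratio test at an adjusted p under 0.1, Nr1d1, which was lower in libraries labelled TAAR5-KO. Among all 13902 features tested, 1.65% were called in either direction and 0.691% were called lower. At an unadjusted p under 0.05, Nr1d1 was again the only one of the 10 by the likelihood ratio test (11.9% of all features) and by DESeq2 (9.73%). With 7 members higher and 3 lower, their log2 fold changes had a median of 0.04, and the median over all features was −0.01. In none of the 10 members were the groups apart, whereas they did not overlap in 1.01% of all features (0.619% with the TAAR5-KO label above and 0.388% with it below).

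The repressor genes of the PER and CRY families did not pass the test. Per1 (chromosome 11, 68986043 to 69000786 on GRCm39) ran from 4.52 CPM through a median of 5.61 to 5.89 CPM in libraries labelled TAAR5-KO, and from 4.46 through 5.04 to 5.35 CPM in those labelled WT. NK2, NK3, NK4 and NK5 lay above every library labelled WT, and NK1 and NK6 within their range. Its log2 fold change was 0.10 (95% interval −0.11 to 0.30, adjusted p = 0.772). Per2 (chromosome 1, 91343704 to 91387046) ran from 1.95 through 2.63 to 3.44 CPM against 2.05 through 2.55 to 3.06 CPM, so that the WT range lay inside the other. The log2 fold change of Per2 was 0.04 (95% interval −0.25 to 0.32, adjusted p = 0.955), on 17 to 117 counts a library.

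Per3 (chromosome 4, 151088109 to 151129122) ran from 3.06 through 3.54 to 4.20 CPM in libraries labelled TAAR5-KO and from 2.85 through 3.17 to 3.62 CPM in those labelled WT. It had the largest positive log2 fold change of the members, 0.22 (95% interval −0.03 to 0.46, adjusted p = 0.494). Cry1 (chromosome 10, 84967564 to 85020928) had 2.53 ± 0.304 CPM and 2.21 ± 0.271 CPM under the TAAR5-KO and WT labels (SD, n = 6 each). This gave a log2 fold change of 0.13 (95% interval −0.16 to 0.42, adjusted p = 0.789). Cry2 (chromosome 2, 92233991 to 92264388), which encodes the second cryptochrome, pointed the other way, with 7.91 ± 0.993 CPM against 8.55 ± 1.35 CPM (SD, n = 6 each). The log2 fold change of Cry2 was −0.14 (95% interval −0.38 to 0.09, adjusted p = 0.683).

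The D-box activators Dbp and Tef were also within the spread. Dbp (chromosome 7, 45354512 to 45359627), a direct E-box target, ran from 1.25 through 2.28 to 2.92 CPM in libraries labelled TAAR5-KO and from 2.03 through 2.54 to 3.38 CPM in those labelled WT. The lowest 2 values were those of NK2 and NK3, and the remaining libraries of both labels overlapped. Its log2 fold change was −0.12 (95% interval −0.48 to 0.24, adjusted p = 0.865), the widest interval of the members, on 16 to 90 counts a library. Tef (chromosome 15, 81686622 to 81711064) had 20.3 ± 1.31 CPM against 19.7 ± 2.57 CPM (SD, n = 6 each). Its log2 fold change was 0.02 (95% interval −0.16 to 0.21, adjusted p = 0.952).

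Nr1d1 (ENSMUSG00000020889.12, chromosome 11, 98658758 to 98666159, minus strand), the gene of REV-ERB alpha, was the exception. In libraries labelled TAAR5-KO the levels of NK1 to NK6 were, in this order, 6.89, 8.36, 8.76, 7.94, 8.70 and 9.77 CPM. In libraries labelled WT those of NK7 to NK12 were 10.96, 9.20, 10.3, 9.89, 11.3 and 13.5 CPM. The groups overlapped through NK6, which lay above NK8, and all others labelled TAAR5-KO lay below every library labelled WT. The means were 8.40 ± 0.956 CPM and 10.9 ± 1.49 CPM (SD, n = 6 each). The log2 fold change was −0.37 (SE 0.12, 95% interval −0.60 to −0.15, adjusted p = 0.0812 by the likelihood ratio test). Nr1d2 (chromosome 14, 4230569 to 4265642), the gene of the close relative REV-ERB beta, had 22.5 ± 1.16 CPM and 21.9 ± 1.78 CPM in the same order (SD, n = 6 each), with a log2 fold change of 0.05 (95% interval −0.11 to 0.21, adjusted p = 0.870). The difference between the log2 fold changes of the pair was not tested.

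The call of Nr1d1 stood close to the threshold. It was called by DESeq2 (adjusted p = 0.0759) and not by the quasi-likelihood test of edgeR (adjusted p = 0.156). Without single libraries it was past the threshold in 5 of 12 fits, and not without NK1, NK2, NK3, NK5, NK7, NK11 or NK12 (log2 fold changes from −0.43 to −0.29, adjusted p from 0.0348 to 0.239 over the 12 fits). The level of Nr1d1 ran against the share of ribosomal RNA in a library (r = −0.65, permutation p = 0.0225, adjusted p = 0.218 over 20 relations with technical measures; Spearman's rho = −0.59, p = 0.0455, adjusted p = 0.328). That r was −0.63 within the 6 libraries labelled TAAR5-KO, −0.69 within the 6 labelled WT and −0.40 without NK1 and NK12. The share ran from 75.5% to 90.6% under the TAAR5-KO label and from 65.9% to 90.5% under the WT label, and with this share as a covariate the log2 fold change was −0.29 (adjusted p = 0.276). With each library's trend on GC content removed it was −0.26 (adjusted p = 0.348), and Nr1d1 has a GC content of 56.3%.

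Nr1d1 shares 263 bases (8.55% of its merged exons) with the end of Thra, the gene of a thyroid hormone receptor on the opposite strand. The strand setting of the counting is not given in the sources used here, so reads of this stretch cannot be assigned. Thra had 37.8 CPM in libraries labelled TAAR5-KO and 39.5 CPM in those labelled WT (log2 fold change −0.07, adjusted p = 0.857). Dbp shares 539 bases (18.0% of its merged exons) with Sphk2 in the same manner, and Sphk2 had 1.31 and 1.33 CPM. Cry2 and Tef overlap antisense non-coding RNAs with 29 and 18 counts in all libraries together.

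Clock (chromosome 5, 76357715 to 76452639), the activating arm, had 28.9 ± 2.79 CPM in libraries labelled TAAR5-KO and 27.0 ± 1.67 CPM in those labelled WT (SD, n = 6 each). Its log2 fold change was 0.09 (95% interval −0.08 to 0.27, adjusted p = 0.732). Bmal1, the partner of CLOCK, ran from 3.06 through 4.05 to 6.57 CPM against 3.61 through 4.21 to 5.18 CPM (log2 fold change 0.09, 95% interval −0.25 to 0.44, adjusted p = 0.890). The highest Bmal1 levels were those of NK3 (6.57 CPM) and NK6 (6.14 CPM), both labelled TAAR5-KO, above every library labelled WT, while the other 4 lay at or below 4.06 CPM. Npas2, which can take the place of CLOCK, had a log2 fold change of 0.14 (95% interval −0.07 to 0.36, adjusted p = 0.635).

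A wider list of 21 clock genes (partners of CLOCK, ROR receptors, other D-box and E-box factors, kinases and ubiquitin ligases of PER and CRY, and widely rhythmic outputs) gave no further call. Of these, 20 passed the filter, with 12 higher and 8 lower and a median log2 fold change of 0.03. No gene was past the adjusted threshold by the likelihood ratio test, the quasi-likelihood test or DESeq2. DESeq2 gave no adjusted p for Nfil3, Ciart, Fbxl21 and Tspan4. By the likelihood ratio test and by DESeq2, 2 of the 20 had an unadjusted p under 0.05. Over all features these shares were 11.9% and 9.73%, so the list did not stand out from them. These 2, named after their values were seen, were Usp2, a ubiquitin protease whose transcript is rhythmic in many tissues (log2 fold change −0.28, adjusted p = 0.313), and Nfil3, a repressor at D-boxes (0.76, adjusted p = 0.307). Nfil3 had at most 28 counts in a library. The kinase genes Csnk1d and Csnk1e, whose products phosphorylate PER proteins, had log2 fold changes of −0.08 (adjusted p = 0.810) and −0.09 (adjusted p = 0.793).

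Ratios between clock genes within a library do not depend on the scaling between libraries, and 4 such ratios were compared. In all 12 libraries Nr1d1 had more counts than Bmal1 and Per1 had more than Per2, while Dbp and Per2 had fewer counts than Bmal1. The log2 ratio of Nr1d1 over Bmal1 (1 count added to each) was, from NK1 to NK6 and all labelled TAAR5-KO, 1.15, 1.03, 0.41, 0.97, 1.16 and 0.67. From NK7 to NK12, labelled WT, it was 1.42, 1.30, 1.48, 1.17, 1.19 and 1.38. The groups did not overlap, but NK5 (207 counts of Nr1d1 and 92 of Bmal1) and NK10 (82 and 36 counts) nearly met. The means were 0.90 ± 0.30 and 1.32 ± 0.13 (SD, n = 6 each), a difference of −0.42. The two-sided exact permutation test gave p = 0.00216, the smallest that 6 against 6 can give (adjusted p = 0.00866 over 4 ratios). The 4 ratios were chosen with earlier results of these data known, which this adjustment does not cover. The ratio also uses the same counts as the log2 fold changes of Nr1d1 (−0.37) and Bmal1 (0.09), so it is not separate support for the call of Nr1d1. The difference kept its side of the threshold without each library in turn, with values from −0.48 to −0.33, but with the GC trend removed it was −0.34 (exact permutation p = 0.0281, adjusted p = 0.113).

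The other ratios did not separate the labels. For Per2 over Bmal1 the means were −0.75 ± 0.59 in libraries labelled TAAR5-KO and −0.74 ± 0.27 in those labelled WT (SD, n = 6 each; exact permutation p = 0.996, adjusted p = 0.996). For Per1 over Per2 they were 1.02 ± 0.30 and 0.96 ± 0.19 (exact permutation p = 0.684, adjusted p = 0.912). For Dbp over Bmal1 they were −1.01 ± 0.68 and −0.75 ± 0.44 (exact permutation p = 0.368, adjusted p = 0.736). The last ratio ran from −1.71 to −0.31 under the TAAR5-KO label and from −1.34 to −0.35 under the WT label. Within each label the values fell into a low and a high set, with NK2, NK3, NK6, NK11 and NK12 at or below −1.26 and the other 7 libraries at or above −0.66. The former 5 also had the highest sums of cortical pyramidal neuron markers, from 76.7 to 95.8 CPM, against 23.0 to 63.6 CPM in the other 7, and the part of these cells in the ratio was not tested.

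**Figure D2:**
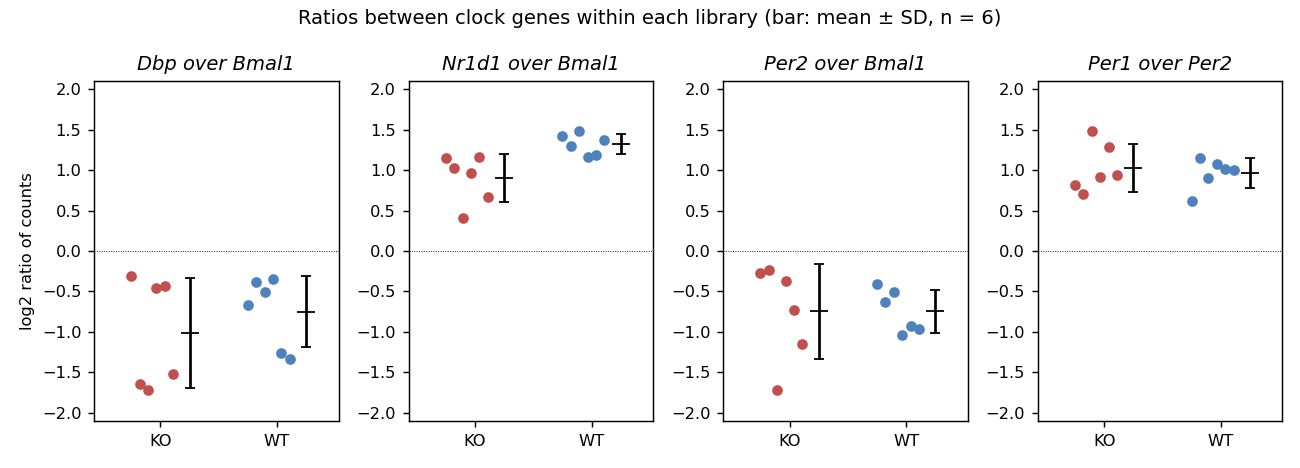
Log2 ratio of counts (vertical axis, 1 count added to each gene) between pairs of clock genes in each library, for the 6 libraries labelled TAAR5-KO (red) and the 6 labelled WT (blue), with bars for the mean ± SD. The labels are apart only for Nr1d1 over Bmal1 (0.90 and 1.32), and the points of Dbp over Bmal1 leave a gap between −1.26 and −0.66.

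The spread between libraries differed from member to member. The highest level of a member was between 1.27 times (Nr1d2) and 2.7 times (Dbp) its lowest over the 12 libraries, with a median of 1.50 times, whereas the median was 1.93 times over the 13546 features with a count in every library. The biological coefficient of variation that edgeR estimates beyond counting error, drawn towards the trend of features of like abundance, was below that trend for 9 of the 10 members, and for 72.1% of all features tested. Ranked by its ratio to the trend, 6 of the 10 members lay below the median of all features, and Tef, Cry2, Nr1d1 and Dbp lay above it. It was lowest for Per1 at 7.37%, against a trend of 12.9%, and 8.49% for Per3, against 13.8%. Dbp, among the most strongly rhythmic clock genes, was the only member above its trend, at 16.1% against 15.3%.

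For several members the spread was no larger than counting alone gives. Per1 varied by 9.10% (coefficient of variation of CPM over 12 libraries) where counting error alone gives 11.05%, Per3 by 11.1% where it gives 13.6% and Cry1 by 13.6% where it gives 16.4%. Nr1d1 (18.2% against 8.24%), Cry2 (14.4% against 8.90%) and Dbp (23.5% against 16.5%) varied by more than their counting error. These values pool both labels, so that of Nr1d1 includes the difference between its label means (8.40 and 10.9 CPM). The biological coefficient of variation given above was instead estimated within labels. For Per1, Per3 and Cry1 the spread did not exceed this estimate of counting error, which is a rough comparison and not a test. Bmal1 had 23.5% against 12.2%.

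**Figure D3:**
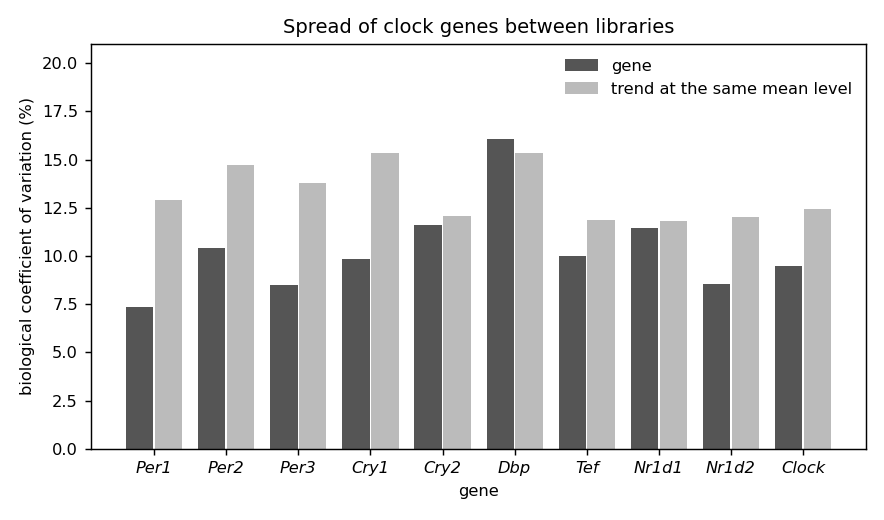
Biological coefficient of variation in percent (vertical axis from 0) of each clock gene (dark bars) and the trend of all features tested at the same mean level (light bars). Dbp (16.1% against 15.3%) stands above its trend and Per1 (7.37% against 12.9%) lies farthest below, where 72.1% of all features tested also lie below theirs.

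To see whether members rose and fell together or in opposition between libraries, the 45 pairs of members were compared over the 12 libraries on log2 CPM. The median Pearson r was 0.0049, against −0.00075 over all pairs of features tested. An r over 0.5 was found in 2 pairs (4.44%), against 7.66% of all pairs of features, and an r under −0.5 in 2 pairs (4.44%), against 7.28%. No pair passed an adjusted p of 0.05 by permutation, and the smallest unadjusted p was 0.0731, for Cry1 and Clock (r = 0.53, adjusted p = 0.972; Spearman's rho = 0.43, p = 0.161, adjusted p = 0.991). That r was 0.39 without NK1 and NK4. Cry2 and Nr1d1 had r = 0.52 and Tef and Nr1d2 had r = −0.53, with unadjusted permutation p of 0.0826 and 0.0795 (adjusted p = 0.972 for each).

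Cry1 and Nr1d1, a pair in which REV-ERB alpha is known to repress the Cry1 gene, had r = −0.51 (permutation p = 0.0937, adjusted p = 0.972; Spearman's rho = −0.61, p = 0.0406, adjusted p = 0.991). The value was −0.87 within the 6 libraries labelled TAAR5-KO, 0.41 within the 6 labelled WT, and −0.028 without NK1 and NK4. The value for this pair thus depended on which libraries were left out. Without NK12, which had high levels of both genes (2.67 and 13.5 CPM), r was −0.93 over 11 libraries (permutation, adjusted p = 0.00135 over the 45 pairs). It was the only pair past the threshold in any of the 12 repeats that left out 1 library.

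Against Bmal1 and Npas2, no member passed in the family of 20 pairs. Tef and Npas2 had the highest value, r = 0.71 (permutation p = 0.0069, adjusted p = 0.138; rho = 0.61, p = 0.0403, adjusted p = 0.279), and 0.64 without NK7 and NK9. Nr1d1 and Bmal1, whose transcripts peak at opposite times in most tissues, had r = 0.42 (permutation p = 0.170, adjusted p = 0.542; rho = 0.45, p = 0.146, adjusted p = 0.423). That r was 0.82 within the 6 libraries labelled TAAR5-KO and 0.80 within the 6 labelled WT, and 0.059 without NK1 and NK12. Dbp and Bmal1 had r = −0.34 (permutation p = 0.276, adjusted p = 0.542; rho = −0.43, p = 0.169, adjusted p = 0.423).

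**Figure D4:**
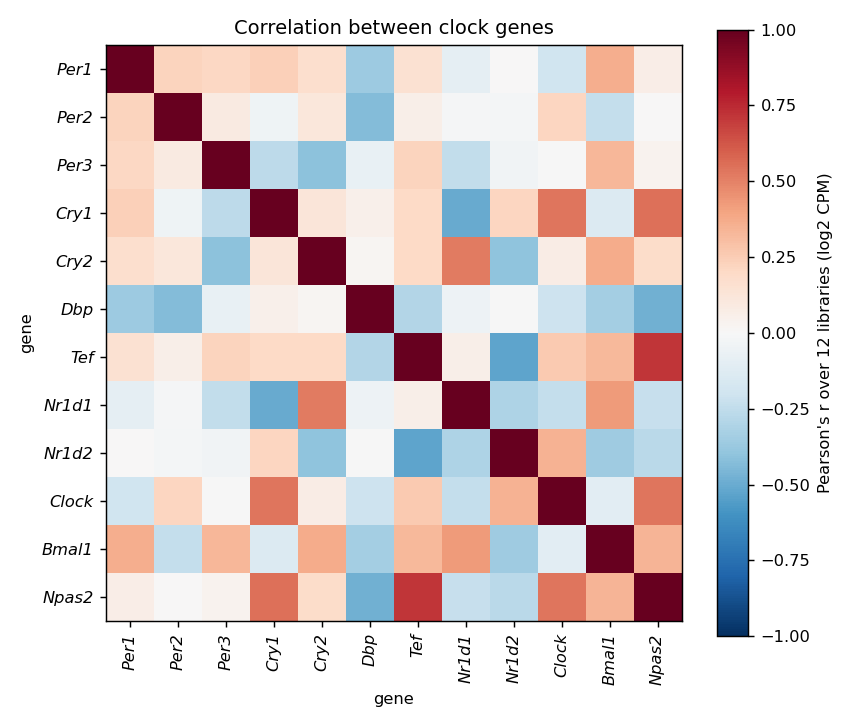
Pearson's r over the 12 libraries on log2 CPM (colour scale from −1 to 1) for each pair of the 10 clock genes with Bmal1 and Npas2. Off the diagonal, values among the 10 members run from −0.53 (Tef and Nr1d2) to 0.53 (Cry1 and Clock), and the highest value shown is 0.71 (Tef and Npas2).

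As a description without a test, features whose levels closely followed the mean of the scaled levels of the 10 members were Hspa8 (r = 0.93, n = 12), which encodes a constitutive chaperone, Tet3 (0.88), ENSMUSG00000121808 (0.85) and Ndrg4 (0.84). The members were taken out of this ranking, which ran over all other features tested, so the r of its top features is high by selection. The members themselves had a median pairwise r of 0.0049, and their mean is thus not a level that they shared.

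The summed levels of genes that could move Per1 and Per2 by other routes overlapped between the labels, and their part in Per1 and Per2 was not tested. The 9 immediate early genes summed to between 21.8 and 46.0 CPM in libraries labelled TAAR5-KO. In those labelled WT the sum was between 16.2 and 50.3 CPM. NK7 to NK10, from 16.2 to 19.7 CPM, lay below every library labelled TAAR5-KO. NK11 (26.9 CPM) lay within the TAAR5-KO range and NK12 (50.3 CPM) above it. None of the 8 immediate early genes tested was called, but their median log2 fold change was 0.53, with Fosb lower (−0.29) and the others higher. Junb (log2 fold change 0.67, adjusted p = 0.153) and Npas4 (0.86, adjusted p = 0.210) had the smallest p by the likelihood ratio test. Egr1, with the highest level (14.8 and 13.4 CPM), had a log2 fold change of 0.14. The 6 glucocorticoid-responsive genes summed to between 13.4 and 18.0 CPM and between 12.9 and 20.5 CPM, with none called. Astrocyte markers summed to between 861 and 1071 CPM and between 959 and 1138 CPM, mostly through Slc1a2 (means of 941 and 970 CPM). None of the 4 was called by the likelihood ratio test, but all 4 had negative log2 fold changes. These were −0.56 for Gfap (adjusted p = 0.128), −0.40 for Aqp4 (adjusted p = 0.189), −0.15 for Aldh1l1 and −0.04 for Slc1a2. Cortical pyramidal neuron markers ran from 23.0 to 87.6 CPM and from 30.2 to 95.8 CPM, ependymal markers from 1.07 to 6.39 CPM and from 2.16 to 3.61 CPM, and choroid plexus markers from 1.23 to 456 CPM and from 2.08 to 278 CPM, again with no call. Called were Hbb-bt, 1 of 4 globin genes (0.790 CPM under the TAAR5-KO label and 0.230 CPM under the WT label), and the pituitary gene Gh (0.123 and 1.62 CPM). Both levels are low. Pituitary markers summed to 16.4, 55.8 and 13.6 CPM in NK10, NK11 and NK12, and to at most 0.986 CPM in NK7 to NK9 (NK9). The part of any of these cells in the levels of the clock genes was not tested. In bulk tissue, fewer cells of a type and less RNA per cell cannot be told apart.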

How the data were processed

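RNA of 12 striata was sequenced. The authors used cutadapt 4.1 for trimming, STAR 2.7.11b for alignment (GRCm39) and featureCounts 2.0.6 for counting. The deposited counts are whole numbers for each gene and library, neither normalized nor pooled, with the length of merged exons. The table holds 12 other count columns, which were left out. Columns name a genotype and no animal, so each was 1 replicate of its genotype, and p-values measure the spread between these libraries.

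Features reaching a CPM of 0.5 in 3 or more libraries were tested in edgeR 4.0.16 (R 4.3.3) with TMM factors and glmLRT, without covariates, and called at an adjusted p (Benjamini–Hochberg) under 0.1, the test and threshold of the study. The study reports fewer features tested and fewer called, with more of them lower than higher in TAAR5-KO. Standard errors came from the same fit as the log2 fold changes. The quasi-likelihood test and DESeq2 1.42.0 were run beside it, and DESeq2 left the adjusted p of 7009 features, Cry1 and Dbp among them, missing. Correlations used log2 CPM with a prior count of 2 and 100000 permutations, and ratios used all 924 assignments of 6 and 6. GC content came from the merged exons and the GRCm39 genome, and trends were fitted by loess (span 0.5). The likelihood ratio, quasi-likelihood and DESeq2 fits and, with fewer resamples, the permutation test of a correlation were tried on simulated data. The exact permutation test of the ratios and the fits with a covariate or with the GC trend removed were not. Other settings are given in the closing section. Members, lists, ratios and tests were chosen with earlier results of these data known. Named genes were all members, Bmal1, Npas2, called genes of the wider list and the 5 features most like the members' mean, of which some items are not reported here.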

Additional observations from a re-analysis of the deposited data

How the results depend on the processing

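Across 10 other settings and 12 fits that left out 1 library each, none of the 9 members other than Nr1d1 was past the threshold (smallest adjusted p = 0.417). These were 198 results, each of 1 member in 1 setting or fit. The stricter threshold was applied to the main fit, and DESeq2 gave no adjusted p for Cry1 and Dbp. Nr1d1 stayed lower in all of these settings and fits. Its log2 fold change, with 0 members called in each case, was −0.37 by the quasi-likelihood test, −0.37 at an adjusted p under 0.05, −0.40 without a filter, −0.37 with ribosomal RNA removed, −0.29 with ribosomal RNA as covariate, −0.26 with the GC trend removed and −0.86 with library size only. Under scaling by library size only, the median over all features was −0.49, and Per1 (−0.36), Per2 (−0.49), Per3 (−0.24), Cry1 (−0.37), Tef (−0.53), Nr1d2 (−0.39), Clock (−0.42), Bmal1 (−0.38) and Npas2 (−0.45) changed sign. That scaling also gave a median pairwise r of 0.97 and 45 of 45 pairs of members past the threshold. It leaves out TMM factors that ran from 0.375 (NK1) to 2.47 (NK7). The values over all pairs of features were not computed under it, so these 45 pairs show nothing particular to the members. With the GC trend removed, Nr1d2 (−0.048), Clock (−0.017) and the ratio of Per2 over Bmal1 (0.064) changed sign, and Nr1d1 over Bmal1 was −0.34 and lost its call. All features called were 229 (133 higher and 96 lower), 63 by the quasi-likelihood test, 7 (0 higher) with library size only, 93 without a filter, 108 at the stricter threshold, 99 with the covariate and 86 with the GC trend removed. Leaving out single libraries moved this count from 85 (without NK11) to 415 (without NK4), members called from 0 to 1, and pairs past the threshold from 0 to 1. It moved Nr1d1 from −0.43 to −0.29, Per2 from −0.021 to 0.10, Tef from −0.018 to 0.072, Bmal1 from −0.025 to 0.18, Per2 over Bmal1 from −0.10 to 0.19 and Per1 over Per2 from −0.033 to 0.12. The cause of these changes was not tested. No paired analysis was possible because the columns carry no number that ties a library to an animal of the labels. Counts of 16 to 118 a library for Per2, Dbp and Cry1 limit what can be seen in these genes.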

Other observations

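The ratio of Dbp over Bmal1 split the libraries in the same way as the summed levels of the immediate early genes, which answer neuronal activity within minutes, and of the cortical pyramidal neuron markers. This was noticed after the data were seen and is given without a test. The 5 libraries with the lowest log2 ratios, from −1.71 to −1.26, were also the 5 with the highest summed immediate early level, from 26.9 to 50.3 CPM. The other 7, with ratios from −0.66 to −0.31, had sums from 16.2 to 25.5 CPM. Cortical pyramidal neuron markers summed to between 76.7 and 95.8 CPM in the same 5 libraries and to between 23.0 and 63.6 CPM in the other 7, and the part of either list in the ratio was not tested. In order of the ratio the former 5 and their immediate early sums were NK3 (37.6 CPM), NK2 (36.7 CPM) and NK6 (46.0 CPM), labelled TAAR5-KO, and NK12 (50.3 CPM) and NK11 (26.9 CPM), labelled WT. Both labels are thus in both sets, and no correlation is given because the ratios fall into separate sets.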
